A study of Arabidopsis lyrata with 12 samples.

Results

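The position of DNA methylation relative to genes was set against mRNA in young leaves of Arabidopsis lyrata accession MN47, a wild relative of the model plant Arabidopsis thaliana. Methylated DNA had been captured with an antibody against 5-methylcytosine (5mC; MeDIP) in 2 libraries, from which 1 list of 33531 enriched domains was deposited, and mRNA had been sequenced in 1 library. Plants were raised on soil at 22.5 °C under days of 16 hours of light, and no genotype or treatment was varied, so the classes compared are classes of genes within 1 tissue and not conditions. Each of the 24268 genes with a deposited mRNA value, a mean exon coverage, was placed by its nearest 5mC, and 24089 fell into 5 classes. In 951 genes 5mC lay only in the middle of the gene span, 500 bp or more from both ends. In 2707 genes it reached a gene end, meaning any base within 500 bp inside an end. The remaining genes had no 5mC in the span and their nearest domain outside at up to 500 bp (3343 genes), over 500 to 2000 bp (5384 genes) or over 2000 bp (11704 genes, called distant genes here). A further 179 genes lay on scaffolds without any 5mC domain and were set aside.

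Plants methylate cytosines in several sequence contexts. In the bodies of many transcribed genes, methylation is known to sit at CG sites in the interior and to thin out towards both ends, while transposons carry it in all contexts and are mostly silent. The antibody does not tell these contexts apart. The files give genes no strand, exon or name, so the start and the end of a gene cannot be told apart either, and leaf marker genes could not be checked. Depth is unknown, replicate error could not be attached to any value, and no test over replicates was possible. Intervals below are 95% intervals over genes (binomial order statistics for a median, Clopper-Pearson for a share) and cover counting of genes alone.

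Genes with 5mC reaching an end had the lowest mRNA coverage of the 5 classes, and genes with 5mC in the middle only did not stand below genes far from 5mC. Median coverage was 4.26 in genes with 5mC at an end (interval 3.88 to 4.60), against 7.29 in distant genes (interval 7.07 to 7.49). It was 7.58 with 5mC in the middle only (interval 6.94 to 8.05), 7.96 with 5mC outside at up to 500 bp (interval 7.64 to 8.30) and 7.23 at over 500 to 2000 bp (interval 6.93 to 7.63). The interval of the end class overlapped none of the others, whereas those of the middle class and the distant genes overlapped. Coverage has a floor of 1 in the deposited table, and 16.7% of the end class were listed exactly there (interval 15.3 to 18.1%). The share at the floor was 5.36% in the middle class (interval 4.02 to 6.99%) and 7.05% in distant genes (interval 6.59 to 7.53%). The table may leave out genes that had no reads, so fully silent genes may be undercounted in every class.

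**Figure D1:**
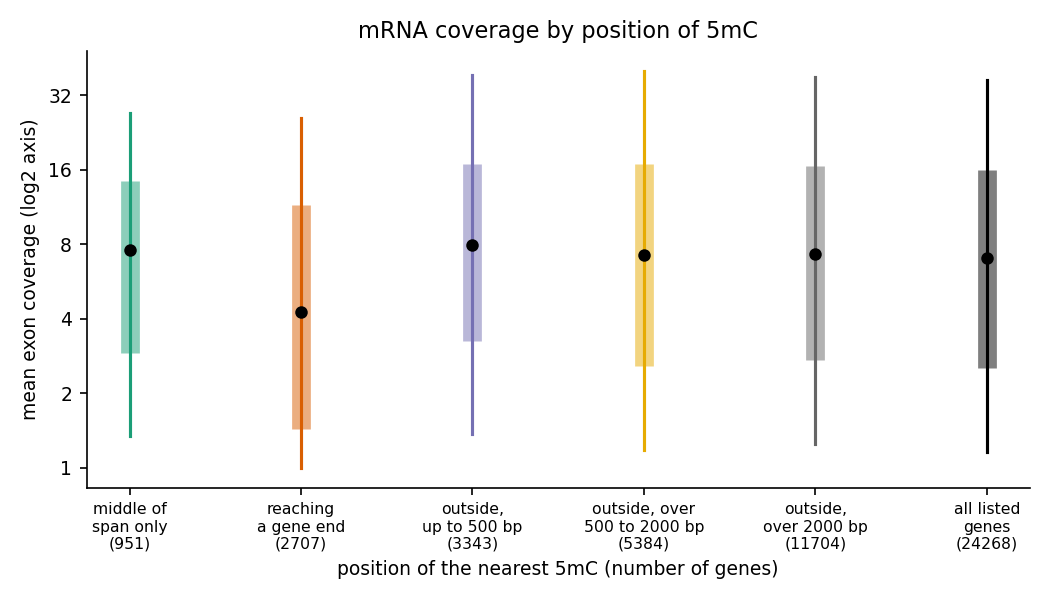
Mean exon coverage (vertical, log2 axis) of genes in each 5mC class and of all listed genes. Points are medians, thick bars run between the quartiles and thin lines between the 10th and 90th percentiles; the end class has the lowest median, 4.26, and its lower quartile lies at 1.43.

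The classes overlapped widely gene by gene. In the end class the quartiles were 1.43 and 11.5 and the highest value 1582, while in distant genes they were 2.73 and 16.5. Of the end class, 37.3% lay above the median of listed genes of the same length, against 51.1% of distant genes. As a ratio of the 90th to the 10th percentile of coverage, the middle class was the narrowest, at 20.1. The ratio was 26.0 in the end class, whose 10th percentile lies at the floor, and 30.2 in distant genes. The 90th percentile itself was 27.1 in the middle class, 26.0 in the end class and 37.8 in distant genes. The share in the highest quintile of coverage, over 19.8, was 16.8% in the middle class and 13.5% in the end class, against 20.8% in distant genes.

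The classes differ in gene length, and coverage varies with length, so coverage was next compared at matched length. Middle-class genes must exceed 1000 bp by definition, and their median span was 4005 bp, against 2575 bp for the end class and 2141 bp for distant genes. Each gene's log2 coverage was taken relative to the median of all listed genes in the same of 20 bins of span length. On this scale the end class lay at -0.69 (interval -0.83 to -0.60) and distant genes at 0.06 (interval 0.01 to 0.09), a difference of -0.75 or 0.594-fold (combined interval of the difference -0.92 to -0.61). The middle class differed from distant genes by 0.02 (interval -0.14 to 0.19). Genes with 5mC outside at up to 500 bp differed by 0.11 (interval 0.01 to 0.23) and those at over 500 to 2000 bp by -0.00 (interval -0.10 to 0.12).

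The difference for the end class had the same direction in every length bin. The end class was below distant genes in 20 of 20 bins, by 0.06 to 1.61 on the log2 scale, and below the middle class in 11 of the 11 bins with at least 20 middle-class genes. The middle class was above distant genes in 6 of these 11 bins and below in 5. On the 8 main scaffolds, taken one by one, the end class was lower on 8 of 8 (differences from -1.02 to -0.50) and the middle class higher on 4 and lower on 4 (-0.46 to 0.57). With the mean in place of the median, the middle class differed from distant genes by -0.17.

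As a ratio of medians over 7 bands of span length, the gap was widest in the longest genes. In spans over 6000 bp the median was 2.56 in the end class and 6.53 in the middle class, against 7.41 in distant genes. There 25% of the end class stood at the floor, against 4.15% of distant genes. In spans over 1000 to 1500 bp the end class had a median of 5.79, against 7.16 in distant genes, and the intervals overlapped (4.57 to 6.505 and 6.38 to 8.08). In spans up to 1000 bp, where 5mC anywhere in the span counts as reaching an end, it was 1.94 against 4.08. Long genes also carried 5mC more often, with 26.1% of spans over 6000 bp in the end class and 17.4% in the middle class, against 9.32% and 3.32% of spans over 2000 to 3000 bp.

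**Figure D2:**
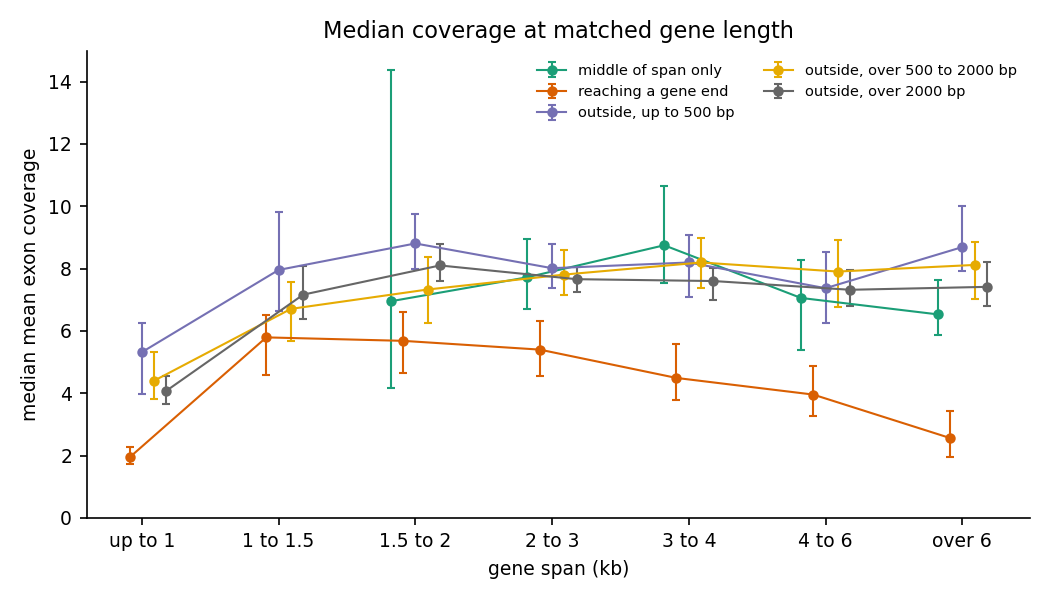
Median mean exon coverage (vertical) by gene span in kb (horizontal), 1 line per 5mC class, with 95% order-statistic intervals; points with fewer than 20 genes are left out. The end class lies lowest in each band and comes to 2.56 in spans over 6 kb, while the other lines run close together.

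Within the end class, coverage went with the share of the span that lay under 5mC. Where 5mC took up to 10% of the span, the 817 genes had a median of 8.81 and a length-adjusted value of 0.29 (interval 0.15 to 0.41), not below the 0.06 of distant genes. At over 10 to 25% the median was 5.75 in 575 genes, at over 25 to 50% it was 3.53 in 499, and at over 50 to 75% it was 1.83 in 341. The low median of the class was thus not shared by its genes with up to 10% of the span under 5mC. In the 176 genes wholly under 5mC it was 1.62, and 30.7% of them were at the floor.

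Both ends together went with lower coverage than 1 end, before shares of the span were matched. In spans of at least 2000 bp the median was 1.42 in the 348 genes with 5mC in both end zones (interval of the length-adjusted value -2.46 to -2.07) and 5.62 in the 1364 with 5mC in 1 end zone (-0.51 to -0.24). Whether a domain crossed the gene edge made less difference. Among these long genes the median was 5.05 in 1075 genes with a domain crossing 1 edge and 4.27 in 469 genes with 5mC in an end zone but no domain crossing an edge, with overlapping intervals of the length-adjusted values (-0.69 to -0.32 and -1.13 to -0.46). It was 1.32 in the 168 genes with domains crossing both edges.

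Position was next compared within bands of share, again in spans of at least 2000 bp. At over 10 to 25% of the span, the length-adjusted value was -0.32 with 5mC in 1 end zone (348 genes, interval -0.70 to -0.17) and 0.11 with 5mC in the middle only (322 genes, interval -0.12 to 0.23). At up to 10% it was 0.28 for 1 end zone (556 genes) and 0.20 for the middle (484 genes), with overlapping intervals. At over 25 to 50% it was -0.99 for 1 end zone (275 genes, interval -1.29 to -0.64) and -0.38 for the middle (96 genes, interval -1.44 to 0.01), and these intervals overlapped too. Between the middle and 1 end zone, the intervals were thus apart at over 10 to 25% of the span. Few genes with 5mC in both end zones had smaller shares, and their intervals overlapped those of 1 end zone in each of these bands. Their length-adjusted value was 0.48 at up to 10% (9 genes) and -0.10 at over 10 to 25% (16 genes). At over 25 to 50% it was -1.68 (39 genes, interval -2.52 to -0.69). At over 50% it was -2.45 with both end zones (284 genes, interval -2.64 to -2.32) and -1.89 with 1 end zone (185 genes, interval -2.14 to -1.47), which were apart. The 13 middle-class genes at over 50% had -0.67, with an interval of -2.44 to 0.32 that overlapped both. Share was not equal within this band, since genes wholly under 5mC have it in both end zones by definition. Histone marks, taken up below, were not matched either. Over all spans and shares, H3K27me1 touched 63.8% of genes with both end zones and 27.2% of those with 1.

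**Figure D3:**
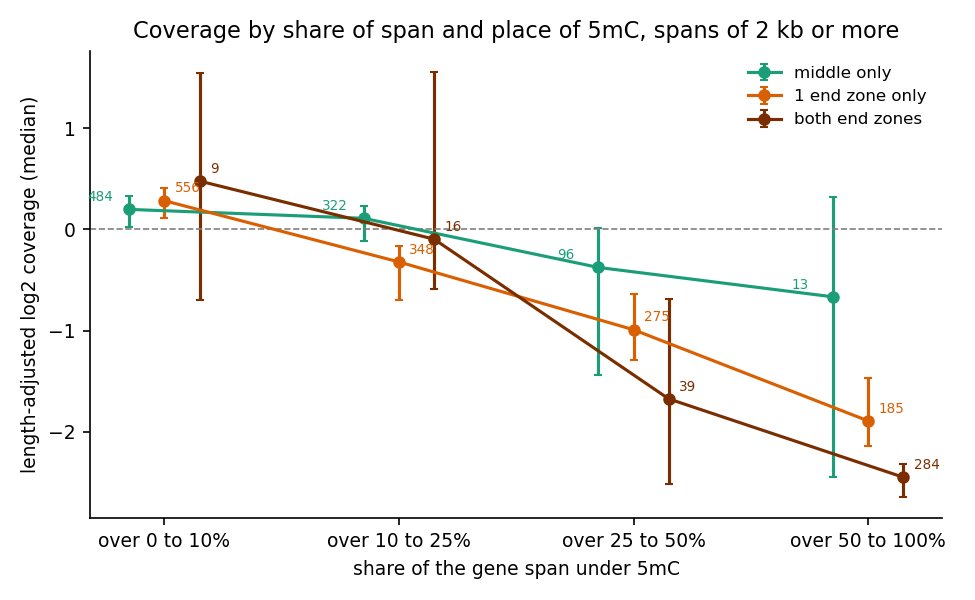
Median length-adjusted log2 coverage (vertical; 0 is the median of listed genes of the same length) by share of the span under 5mC (horizontal), for spans of at least 2000 bp, with 95% intervals and the number of genes beside each point. The values lie near 0.20 to 0.48 at up to 10% of the span and at -2.45 for 5mC in both end zones over more than 50%.

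In the middle class 5mC was mostly a single short domain. A single domain touched 817 of the 951 genes (85.9%), the median width of the widest domain was 300 bp, against 1050 bp in the end class, and the median share of the span was 9.61%, against 23.6%. Coverage was lower where the middle held more 5mC. The median was 8.04 in the 500 genes with up to 10% of the span under 5mC and 5.17 in the 101 genes with over 25 to 50%. By number of domains it was 7.80 with 1 domain, 5.69 with 2 (97 genes) and 3.58 with 3 or more (37 genes, interval of the length-adjusted value -1.74 to -0.15). The 41 genes whose widest domain exceeded 1500 bp had a median of 4.12 and a length-adjusted value of -0.72 (interval -1.88 to -0.15).

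The middle class therefore depended on how it was drawn. With domains of at least 600 bp alone, 336 genes remained in it, and their difference from distant genes was -0.30 (interval -0.58 to -0.07). With every gene counted as middle in which no domain crossed an edge, 1663 genes differed by -0.25 (interval -0.41 to -0.11). The authors' deposited score, divided here by domain width, gave no such order: over its quartiles from low to high, the medians of the middle class were 6.80, 7.84, 7.38 and 8.18, and those of the end class 4.14, 3.47, 4.21 and 5.53.

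Outside the span, 5mC went with little difference in coverage at any distance. Medians were 8.09 for the nearest 5mC at over 0 to 150 bp (989 genes), 8.23 at over 150 to 300 bp (1051 genes) and 7.54 at over 300 to 500 bp (1296 genes). Farther out they lay between 7.11 and 7.54 up to the 1093 genes over 16000 bp from 5mC, whose median was 7.29. Coverage next to 5mC was thus not lower than far from it. The small positive difference at up to 500 bp was seen on 7 of 8 main scaffolds (-0.04 to 0.20) and in 13 of 20 length bins. Its interval barely excluded 0 and included it under 5 alternatives, among them genes with H3K4me3 and neither H3K27 mark, where the difference was 0.02 (interval -0.08 to 0.12).

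Genes flanked by 5mC on both sides, or by wide domains, were no lower. The 189 genes with 5mC within 500 bp of both ends had a median of 8.27, and the 3154 with it on 1 side 7.95. Next to domains wider than 5000 bp, at up to 500 bp, 106 genes had a median of 8.97 (quartiles 3.28 and 15.7), against 7.70 in the 519 genes next to domains of up to 150 bp, with overlapping intervals of the length-adjusted values (-0.25 to 0.58 and -0.09 to 0.27). Inside the span the width of the domain went with coverage: end-class genes touched by a domain over 1500 bp had a median of 2.39 (943 genes), and those touched by domains of up to 150 bp had 7.21 (164 genes).

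**Figure D4:**
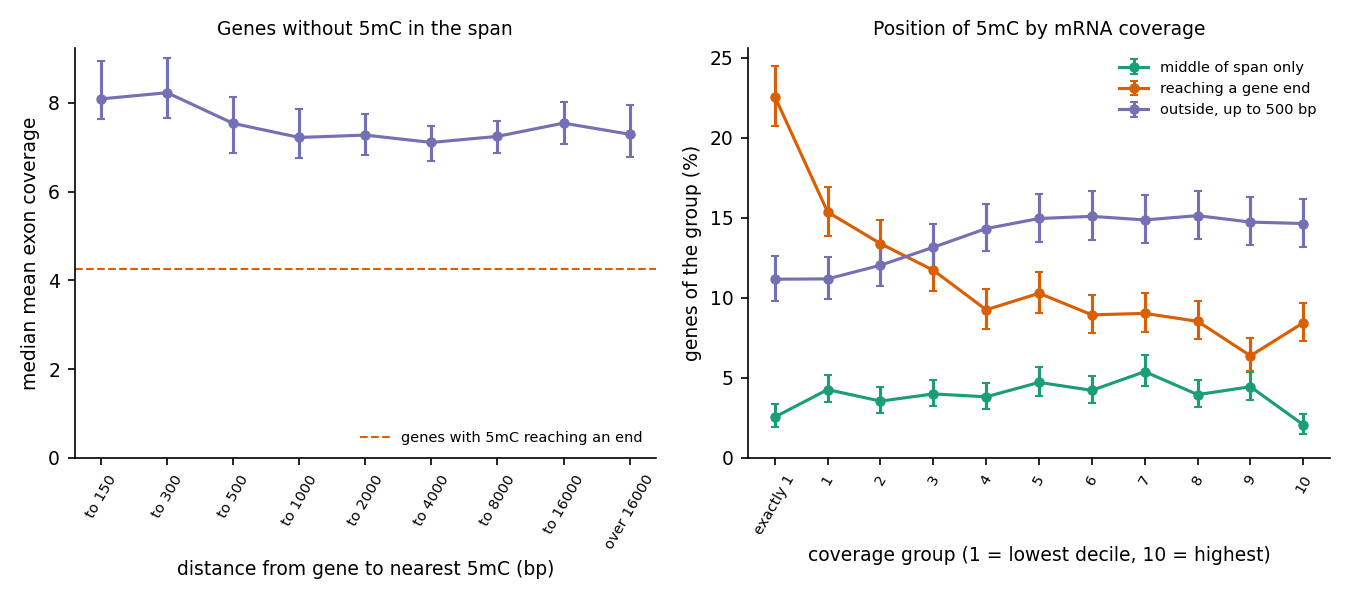
Left, median mean exon coverage of genes without 5mC in the span by distance to the nearest 5mC, with 95% intervals; all 9 medians lie between 7.11 and 8.23, above the dashed line of the end class at 4.26. Right, share of genes in 3 of the classes, for genes listed at exactly 1 and for deciles of coverage of the others; the share of the end class is 22.6% at exactly 1.

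Read from the mRNA side, 5mC at a gene end was most frequent among genes with the least mRNA, and 5mC in the middle was least frequent at both extremes. The end class made up 22.6% of the 1998 genes at exactly 1 (interval 20.8 to 24.5%), 15.4% of the lowest decile of the others (13.9 to 16.9%), 6.38% of the 9th decile (5.40 to 7.47%) and 8.44% of the highest decile (7.32 to 9.67%). The middle class made up 2.55% at exactly 1 (interval 1.91 to 3.34%), 5.39% in the 7th decile (4.49 to 6.41%) and 2.07% in the highest decile (1.52 to 2.75%). Gene length moved with this pattern. The median span was 1821 bp at exactly 1, 2478 bp in the 7th decile and 1776 bp in the highest. Among spans of at least 2000 bp, the middle class was 5.37%, 7.83% and 4.93% of these groups, and the intervals of the first and second overlapped (4.001 to 7.04% and 6.51 to 9.33%). The end class was 32.3% of the long genes at exactly 1, against 9.40% in the 7th decile.

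Histone marks differed between the classes along with coverage. H3K4me3 is known from the start of transcribed genes, H3K27me3 from genes silenced by Polycomb complexes, and H3K27me1 from heterochromatin. H3K4me3 touched 64.9% of the end class (interval 63.1 to 66.7%) and 82.8% of the middle class (80.2 to 85.1%), against 80.8% of distant genes (80.1 to 81.6%). H3K27me1 touched 37.1% of the end class (interval 35.2 to 38.9%), 14.8% of the middle class and 3.95% of genes with 5mC outside at up to 500 bp, against 4.38% of distant genes. H3K27me3 touched 26.4%, 22.1% and 15.4% of these classes, against 14.3% of distant genes. In genes with 5mC outside at over 500 to 2000 bp it was 20.1% (interval 19.0 to 21.2%). These shares were not matched for gene length, and the median span was 4005 bp in the middle class and 2141 bp in distant genes. The marks followed the share of the span as well. From up to 10% of the span under 5mC to over 50%, H3K4me3 was found in 85.6, 76.2, 64.5 and 36.5% of end-class genes and H3K27me1 in 8.94, 20.2, 45.9 and 71.7%.

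Genes were next grouped by combination of marks, with H3K27me3 and H3K27me1 counted together as an H3K27 mark. The 5mC classes had much the same median coverage in 3 of the 4 combinations. The 2 H3K27 marks were not told apart there, and their shares differed between classes. H3K27me1 touched 37.1% of the end class and H3K27me3 26.4%, against 4.38% and 14.3% of distant genes. With H3K4me3 and neither H3K27 mark, the median was 9.75 in 1156 end-class genes, 10.4 in 605 middle-class genes and 10.3 in 2490 genes with 5mC outside at up to 500 bp, against 10.1 in 8414 distant genes. With an H3K27 mark but no H3K4me3, it was 1.23 in 743 end-class genes and 1.47 in 108 middle-class genes, against 1.33 in 1078 distant genes. Medians this close to the floor can show little difference. The share at exactly 1 there was 42.5% in the end class (interval 38.9 to 46.2%) and 27.8% in the middle class (19.6 to 37.2%), against 35.7% in distant genes (32.8 to 38.7%). With none of the 3 marks the median was 1.98 in 207 end-class genes, against 1.94 in 1164 distant genes. The exception was H3K4me3 together with an H3K27 mark, where the median was 4.21 in 182 middle-class genes and 3.91 in 601 end-class genes, against 2.99 in 1048 distant genes. The intervals of the length-adjusted values there met at their bounds (-0.999 to -0.41 and -0.99 to -0.63, against -1.34 to -0.99). Fitted again over genes without H3K27me3 and H3K27me1, the length-adjusted difference of the end class from distant genes was -0.07 (interval -0.25 to 0.06), against -0.75 over all genes. With H3K4me3 required in addition it was -0.04 (interval -0.16 to 0.09). The classes also differed in how many genes held each combination. H3K4me3 without an H3K27 mark was found in 42.7% of the end class, against 71.9% of distant genes. An H3K27 mark without H3K4me3 was found in 27.4%, against 9.21%. Selecting by marks also changed the share of the span under 5mC. Of the 1156 end-class genes with H3K4me3 and neither H3K27 mark, 110 had over 50% under 5mC, against 816 of 2707 in the whole class. The histone marks and the mRNA come from the same tissue, and what part of the difference belongs to 5mC, the histone marks or transcription itself cannot be told apart.

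The share of the span kept a difference among genes with H3K4me3 and neither H3K27 mark, but not clearly in the other combinations. In end-class genes with H3K4me3 and neither H3K27 mark, the median was 10.6 in 584 genes with up to 10% of the span under 5mC, 9.68 in 298 with over 10 to 25%, 7.41 in 164 with over 25 to 50% and 6.69 in 110 with over 50%. The length-adjusted values were 0.57 (interval 0.47 to 0.67) in the first of these groups and -0.03 (interval -0.57 to 0.27) in the last. In end-class genes with an H3K27 mark and no H3K4me3, the medians lay between 1.19 and 1.36 over the same groups, close to the floor. With H3K4me3 and an H3K27 mark they were 3.88, 5.09, 4.37 and 3.01, without a steady fall. The length-adjusted intervals of the first and last of these overlapped (-1.08 to -0.08 and -1.58 to -0.86). With none of the 3 marks the medians were 3.03, 1.95, 1.82 and 1.72, and all the length-adjusted intervals overlapped.

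In the absence of strand, the end that carries H3K4me3 served as a landmark, without being taken as the start of the gene. In 10372 spans of at least 2000 bp H3K4me3 lay in 1 end zone alone. 5mC was less frequent inside this end than inside the other and more frequent just outside it. It covered 0.764% of base pairs at 300 to 400 bp inside the H3K4me3 end and 2.69% at the same depth of the other end. Outside, at 500 to 600 bp, it covered 11.8% beyond the H3K4me3 end and 7.41% beyond the other. The end zone with H3K4me3 alone held 5mC in 3.17% of these genes (interval 2.84 to 3.53%) and the other end zone alone in 4.24% (3.86 to 4.65%).

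The lowest quartile of coverage had more 5mC inside both ends than the other quartiles, and the curves outside the H3K4me3 end lay close together. At 300 to 400 bp inside the H3K4me3 end 5mC covered 1.54% of base pairs in the lowest quartile of coverage (up to 4.73) and 0.415% in the highest (over 16.7). At the other end it covered 4.69% in the lowest quartile, 1.92% in the middle 2 quartiles and 2.24% in the highest, so the values there did not follow the order of coverage. At 500 to 600 bp outside the H3K4me3 end the values were 11.3 and 11.5%. Median coverage was 8.65 in the 329 genes with 5mC in the H3K4me3 end alone, 9.07 in the 440 with it in the other end alone, 4.48 in the 68 with it in both ends and 8.87 in the 639 with it in the middle only, against 9.10 in the 8896 without 5mC in the span. Their length-adjusted intervals overlapped (0.02 to 0.38, 0.05 to 0.44 and 0.22 to 0.45, against 0.27 to 0.35), except that of both ends (-1.22 to -0.17).

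**Figure D5:**
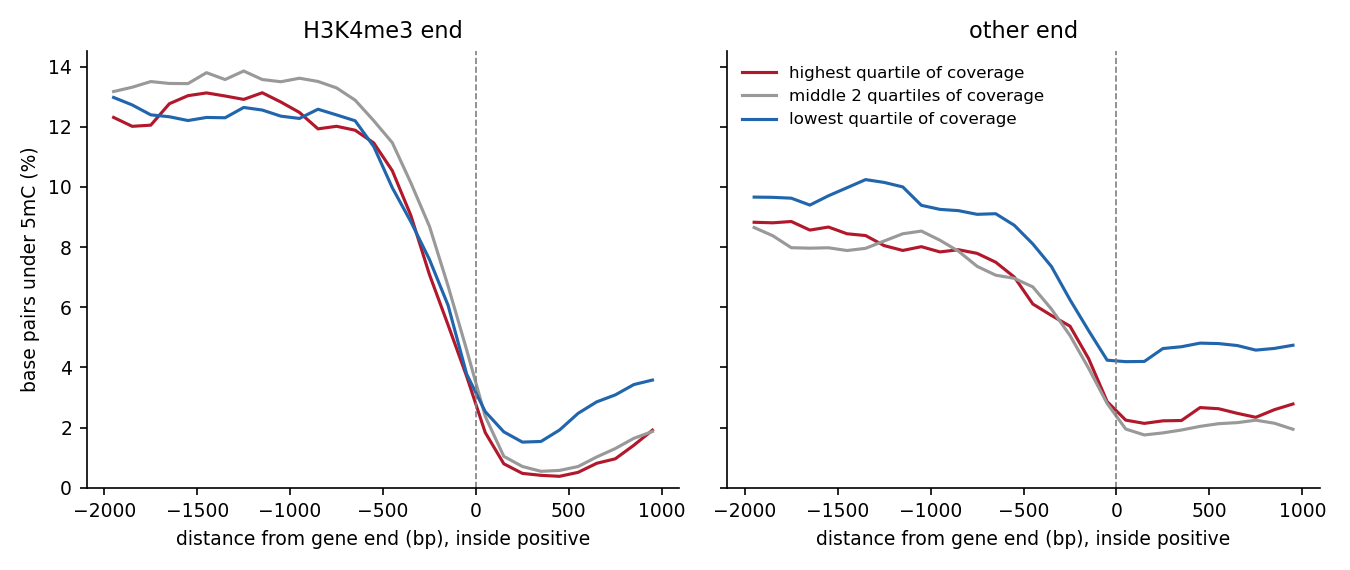
Percentage of base pairs under 5mC (vertical) in steps of 100 bp from 2000 bp outside (negative) to 1000 bp inside a gene end (horizontal), at the end with H3K4me3 (left) and the other end (right), for quartile groups of coverage among 10372 genes. All lines dip inside the H3K4me3 end, where the lowest quartile lies at 1.54% and the highest at 0.415% at 300 to 400 bp.

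Single genes show the range. The identifiers matched no name in the RefSeq gene table, so 4 genes are given by identifier and position, chosen as the 2 with the highest coverage in the middle class and the 2 with the highest coverage among genes wholly under 5mC. AL5G27100 (scaffold 5, 13885300 to 13887550) had a coverage of 382, and its 5mC domain (13886101 to 13886550) began 801 bp from 1 end and stopped 1000 bp before the other. AL4G24930 (scaffold 4, 14502362 to 14505613) had a coverage of 325 with a domain of 300 bp (14503351 to 14503650). Both had H3K4me3 and neither H3K27 mark. AL3G52450 (scaffold 3, 24403496 to 24407060) and AL3G52460 (scaffold 3, 24407531 to 24410981) lay under 1 domain of 18600 bp (24402151 to 24420750) and had coverages of 121 and 103, with H3K27me1 and without H3K4me3. They stand in a stretch (24306901 to 24443100) under the H3K27me1 domain with the highest score in its list, where 12 listed genes had coverages of 64.0 to 123. Without this stretch the median of genes wholly under 5mC was 1.5 in 171 genes, against 1.62 with it.

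Genes just on either side of the class limits had like values. With the 5mC nearest to an end at 350 to under 500 bp inside, 173 genes had a median of 5.98, and with it at 500 to under 650 bp, 148 genes had a median of 5.96. For 5mC outside, medians were 7.62 at 351 to 500 bp (974 genes) and 6.94 at 501 to 650 bp (824 genes). They were 7.20 at 1701 to 2000 bp (740 genes) and 6.90 at 2001 to 2300 bp (725 genes). The limit of 500 bp inside the span therefore marks no step in coverage.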

How the data were processed

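The authors deposited 1 list of enriched 5mC domains (and 1 for each histone mark) with a whole-number score per domain; Bowtie and SICER are named, without version, in the submitters' processing notes. Not given in the sources used here were the meaning of the score, the calling settings, the genome build and whether the 2 libraries were pooled. The deposited mRNA signal is a mean exon coverage per gene, from 1 library, with no normalization stated and a lowest value of 1. Depth is unknown for every library, and input libraries were not analysed here.

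Domains and spans were intersected at 1 bp or more, in coordinates counted from 1 (Python 3.11.15, numpy 2.4.6, pandas 2.3.3, scipy 1.17.1, matplotlib 3.10.9). Length adjustment subtracted from each log2 coverage the median of its bin, 20 bins of equal gene number. No pseudocount was needed. The interval of a difference joins the outer bounds of both medians. The procedure was tested on simulated data. Genes, classes and tables were chosen with earlier results of these data known. The rule for printed genes took the 2 of highest coverage in the middle class and among spans wholly under 5mC. The RefSeq table (34365 genes) matched 0 identifiers.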

Additional observations from a re-analysis of the deposited data

How the results depend on the processing

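No replicate could be left out, since 1 domain list was deposited per mark and mRNA was sequenced in 1 library. No paired analysis was possible because values per replicate were not used here. For genes with 5mC at up to 500 bp and over 500 to 2000 bp outside, all 16 alternatives stayed within the intervals of the difference from distant genes (0.02 to 0.17 and -0.00 to 0.09). The interval at up to 500 bp included 0, however, in 5 of the 15 with an interval: domains of at least 600 bp, no overlapping genes, no H3K27 marks, H3K4me3 without them, and spans of at least 2000 bp. For the end class all 16 were below 0: -1.05 with at least 150 bp of 5mC in the span, -0.94 with the top 50% of domains by score, -1.04 with domains of at least 600 bp, -0.42 without genes at exactly 1, -0.072 without genes touched by H3K27me3 or H3K27me1 and -0.036 with H3K4me3 required as well. The last 2 drop many genes of the class, which held 1363 and 1156 then. For the middle class the difference was below 0 in 5 of 16: -0.06 with a narrower end zone, -0.25 where only domains crossing an edge count as reaching an end, -0.30 with the top 50% of domains and with domains of at least 600 bp, and -0.17 with the mean. Class sizes followed the settings. The middle class held 468 genes with end zones of 1000 bp, 1663 with crossing, 306 with the top 50% of domains, 336 with domains of at least 600 bp and 605 with H3K4me3 and no H3K27 mark. The outside classes held 1718 and 3249 genes with the top 50% of domains, and 1879 and 3535 with domains of at least 600 bp. With spans of at least 2000 bp the end class held 1712 genes and the 3 outside classes 1935, 2940 and 6394. The set without the scaffold 3 stretch was chosen after the data were seen and moved no value beyond these limits. Score rose with domain width (Spearman 0.939 over 33531 domains, which share libraries), so the top 50% are the wide domains.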

Other observations

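Where a gene carried both H3K4me3 and 5mC, the domains were more often apart than on the same base pairs. They shared base pairs inside the span in 667 of 1757 such genes of the end class (38.0%, interval 35.7 to 40.3%) and in 119 of 787 of the middle class (15.1%, interval 12.7 to 17.8%). Domain edges lie on a grid of 150 bp, which sets the resolution of a shared stretch. No share expected from placement alone was computed, and middle-class 5mC lies 500 bp or more from both ends by definition. Median coverage was 7.51 with shared base pairs and 7.51 without in the end class. In the middle class it was 10.7 with shared base pairs (interval of the length-adjusted value 0.23 to 0.85) and 8.36 without (0.17 to 0.38), in genes with median spans of 2789 and 4142 bp.

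Off the 8 main scaffolds, coverage was lower than on the main scaffolds in the outside classes too. There the median was 3.40 in 176 end-class genes, 5.69 in 31 middle-class genes, 5.31 in 50 genes with 5mC outside at up to 500 bp and 3.803 in 81 at over 500 to 2000 bp, against 4.09 in 136 distant genes.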
